A study of Homo sapiens with 39 samples.

Results

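The genes described here are the core regulators of the G1 phase of the cell cycle in the table: the D-type cyclins CCND1 and CCND3, the kinases CDK4, CDK6 and CDK2, and the kinase inhibitors CDKN1A, CDKN1B, CDKN1C, CDKN2A and CDKN2B. They were chosen by gene symbol, and all 10 were found among the 60671 genes of the table. Expression was measured by RNA sequencing in 39 libraries of the human melanoma cell lines A375 and WM115. A375 gave 18 libraries, of unedited cells (WT, 4 libraries) and of the clones 1.1 (3), 1.2 (4), 4.1 (4) and 4.2 (3). WM115 gave 21 libraries, of WT cells (4) and of the clones 1.1 (5), 1.2 (3), 1.3 (3), 4.1 (3) and 4.2 (3). In the edited clones a region with enhancer activity for SOX10, a transcription factor of the melanocyte lineage, had been deleted. By their genotype labels clones 1.1 and 1.2 of both lines carry the R1 deletion, and clones 4.1 and 4.2 carry the R4 deletion. The title of WM115 clone 1.3 names it with the R1 clones while its genotype label says R4, so it was kept as a group of its own. Each edited group is a single clone, so a difference from WT belongs to that clone, and the effect of a deletion cannot be told apart from the history of a clone. The labels do not say that libraries of a group came from separate cultures, and p-values then measure the spread between libraries, which may be technical.

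The G1 regulators decide whether a cell commits to replicate its DNA. D-type cyclins bind CDK4 and CDK6 and start the phosphorylation of the retinoblastoma protein, cyclin E with CDK2 completes it, and E2F factors are then released to switch on the genes of S phase. The INK4 proteins encoded by CDKN2A, CDKN2B, CDKN2C and CDKN2D hold CDK4 and CDK6 in check, and the CIP/KIP proteins encoded by CDKN1A (p21), CDKN1B (p27) and CDKN1C (p57) hold cyclin-bound CDK2. In melanoma, loss of CDKN2A and gain of CCND1 or CDK4 are recurrent, and the BRAF and MAP kinase pathway feeds into CCND1 transcription. CDKN2A makes separate proteins from 1 locus: exon 1 alpha joined to exon 2 gives p16INK4A, and exon 1 beta joined to the same exon 2 in another reading frame gives p14ARF.

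Levels are in TPM, a measure of transcript abundance that is corrected for gene length. Sequencing depth is unknown, since no counts were used. Differences are on the log2(TPM + 1) scale, which understates changes of low genes, and come from limma fits over all genes of a line, each gene being tested at 1 TPM or more in at least 3 libraries. A gene is said to have risen or fallen where its Benjamini-Hochberg adjusted p was below 0.05. CDKN2B was listed at 0 TPM in all 39 libraries and was not tested, which left 9 of the 10 genes in every comparison.

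Several features of the libraries touch the results. Library 3 of WM115 clone 1.2 stood apart, with SOX10 at 9.56 TPM against 279 and 272 TPM in the other libraries of the clone and at least 320.9 TPM in the other WM115 libraries, so calls of that clone are given with and without it. The TPM share of mitochondrial genes ran from 0.968% to 4.92% across A375 libraries and from 4.71% to 19.4% across WM115 libraries. The libraries were split into a low and a high set at a cut of 2.5% in A375 and 7.5% in WM115. All WM115 WT libraries were in the high set. Of the 11 melanocyte and neural crest markers, MLANA, TYR, TYRP1 and DCT stayed below 1 TPM in every A375 library, and the list summed to 516.5 to 1465 TPM in A375 and 79.5 to 3767 TPM in WM115, lowest in the library that stood apart. The 7 fibroblast markers had sums of 4.81 to 21.8 TPM in the A375 libraries and of 374 to 866 TPM in the WM115 libraries. Of the immune markers, CD68, a lysosomal gene that other cells also express, was the highest (18.2 to 164.9 TPM in A375, 225.2 to 757.2 TPM in WM115). LYZ was read at 1.23 to 12.3 TPM in A375 and stayed below 1 TPM in WM115, and PTPRC, CD3E and HBB stayed below 1 TPM in every library.

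**Figure D1:**
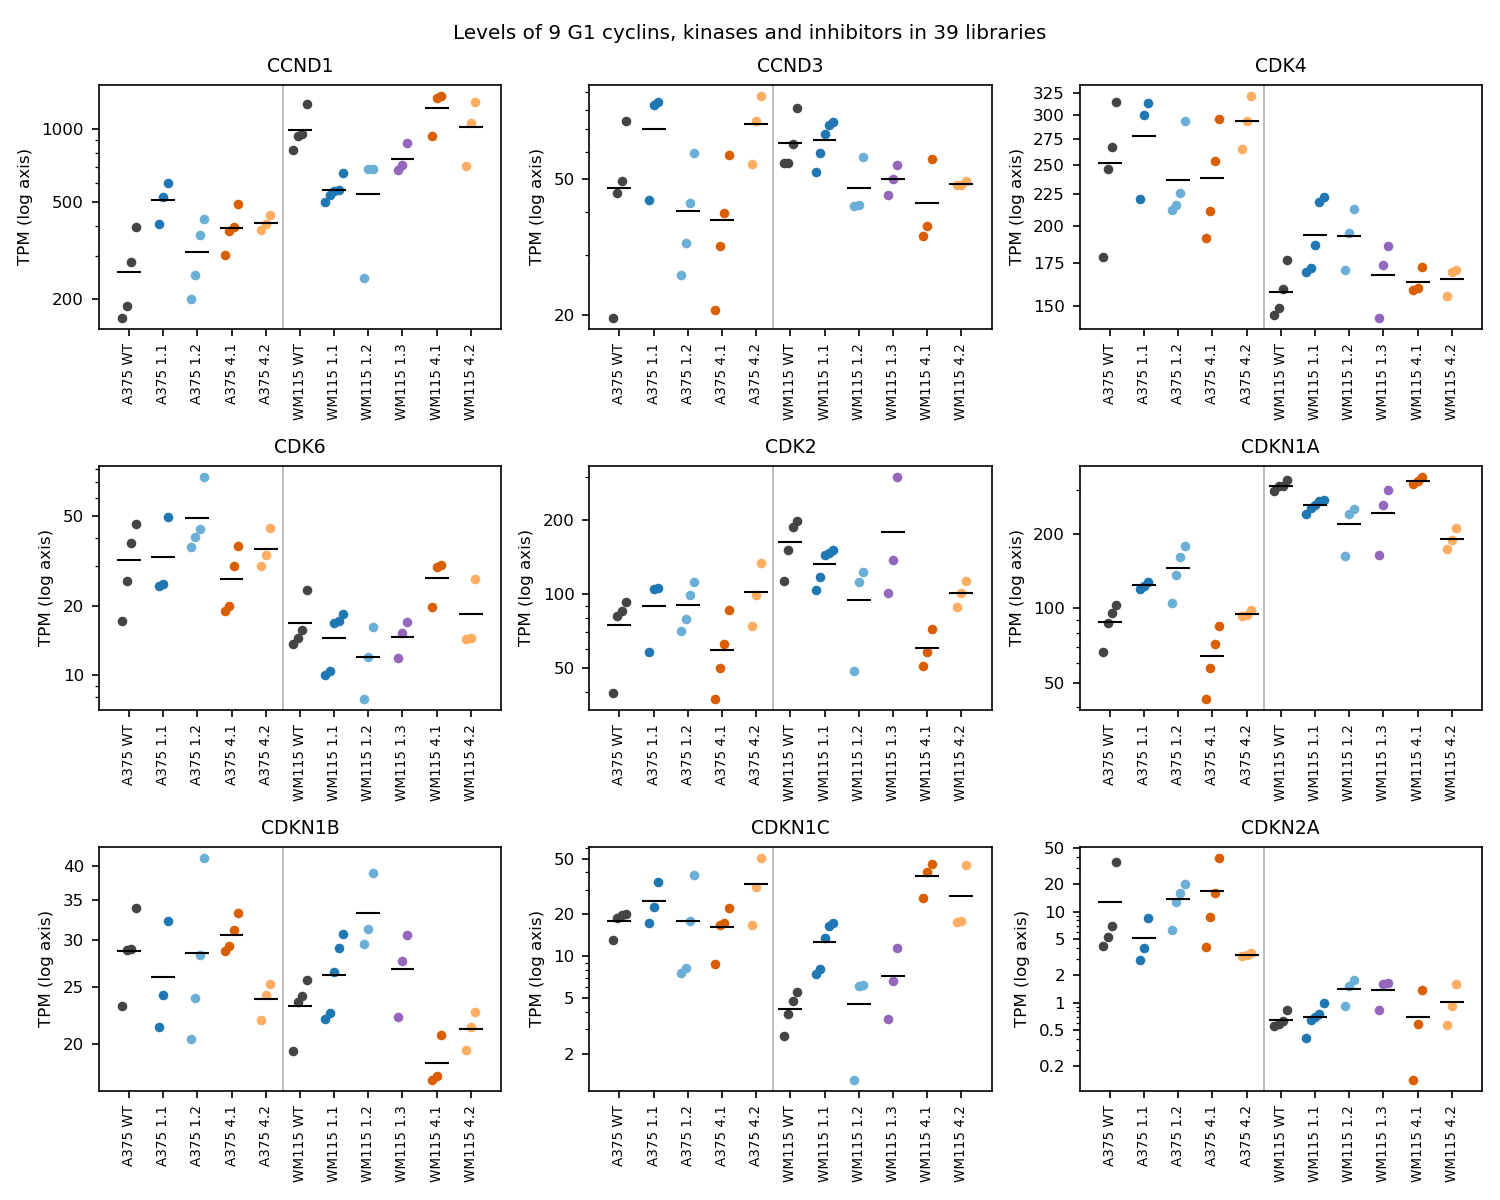
TPM (log axis) of 9 G1 regulators in the 11 groups, A375 on the left and WM115 on the right of each panel; each point is a library and each line the mean of its group. CCND1 was the most abundant of them in all 11 groups, CDKN1A was higher in WM115 WT than in A375 WT, and CDKN1C was higher in WM115 clones 4.1 and 4.2 than in WM115 WT.

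The unedited lines differed in most of these genes. Of the 9 tested genes 7 passed the test between the WT cells, with CDK4, CDK6, CDKN1C and CDKN2A higher in A375 and CDK2, CCND1 and CDKN1A higher in WM115; 47.9% of all 16126 genes tested passed it. The median difference (A375 minus WM115) was 0.29 over the 9 genes and -0.04 over all genes. Line and any batch cannot be told apart in this comparison.

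CCND1, a D cyclin that is amplified in some melanomas, was read at 284, 167, 186 and 396 TPM in the A375 WT libraries and at 821, 952, 1274 and 937 TPM in those of WM115. The lines did not overlap. The difference was -2.01 on the log2 scale (standard error, SE, 0.27; limma adjusted p = 0.000246). CCND3 was read at 49.2, 19.6, 45.5 and 74.3 TPM in A375 WT and at 55.6, 63.6, 81.0 and 55.6 TPM in WM115 WT, with overlapping ranges (limma adjusted p = 0.202). CCND1 supplied 80.4% to 94.9% of the summed TPM of the 3 D cyclins in A375 libraries and 85.4% to 97.4% in WM115, and CCND2 did not exceed 0.04 TPM in any library.

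CDK4 was read at 267, 179, 246 and 315 TPM in A375 WT and at 149, 159, 177 and 145 TPM in WM115 WT, and all A375 libraries lay above all WM115 libraries. It was 0.65 higher in A375 on the log2 scale (SE 0.18, limma adjusted p = 0.0129). CDK6, its close relative, was read at 37.9, 25.9, 17.2 and 46.2 TPM in A375 WT against 15.8, 14.6, 23.5 and 13.7 TPM in WM115 WT, and here the ranges overlapped (difference 0.81, SE 0.29, limma adjusted p = 0.0427; the call was kept in 7 of 14 alternative settings). CDK4 exceeded CDK6 in every library, by 2.87 to 14.3 times in A375 and 5.38 to 24.7 times in WM115.

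CDK2, the kinase of cyclins E and A, was read at 85.5, 39.7, 82.0 and 93.5 TPM in A375 WT and at 152, 187, 113 and 199 TPM in WM115 WT, again without overlap. The difference was -1.14 (SE 0.28, limma adjusted p = 0.00785).

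The CIP/KIP inhibitors were composed differently in the lines. CDKN1A, which p53 and other inputs induce, was read at 66.6, 104, 96.1 and 87.5 TPM in A375 WT and at 314, 297, 329 and 311 TPM in WM115 WT. Every WM115 library lay well above every A375 library (difference -1.83, SE 0.15, limma adjusted p = 1.15e-05). CDKN1A made up 65.1% ± 5.63 (SD, n = 4) of the summed CIP/KIP TPM in A375 WT and 91.9% ± 0.823 (SD, n = 4) in WM115 WT. CDKN1C went the other way: 19.8, 13.04, 18.8 and 19.98 TPM in A375 WT against 4.75, 3.85, 5.51 and 2.71 TPM in WM115 WT, without overlap (difference 1.87, SE 0.21, limma adjusted p = 8.34e-05). CDKN1B did not pass the test (difference 0.29, limma adjusted p = 0.139), at 23.2 to 33.9 TPM in A375 WT and 19.4 to 25.7 TPM in WM115 WT.

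Genes of the p53 pathway fixed as a list beside CDKN1A were more often lower than higher in A375 WT, as CDKN1A was. Of 24 tested, 11 were lower and 1 was higher in A375 WT, where 26.3% of all genes were lower and 21.6% higher, and their median difference was -0.40 against -0.04 for all genes. GDF15, a secreted stress cytokine, was lower (-7.06 on the log2 scale), as were ZMAT3 (-1.93), PHLDA3 (-1.72), BBC3, which encodes the death protein PUMA (-1.49), and MDM2, the p53 ubiquitin ligase (-1.43). The gene that was higher was TP53I3 (1.40).

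Among the INK4 inhibitors, CDKN2A was read at 5.20, 34.8, 6.93 and 4.22 TPM in A375 WT and at 0.631, 0.55, 0.82 and 0.583 TPM in WM115 WT. All A375 libraries were above all WM115 libraries, with library 2 of A375 WT far above the other A375 WT libraries. The difference was 2.58 (SE 0.52, limma adjusted p = 0.00258), and 1.95 without library 2, where it still passed. From a list of 11 genes of chromosome band 9p21 around CDKN2A, which reaches beyond 500 kb on either side, 6 were tested and 5 were higher in A375 WT: MTAP, which salvages methylthioadenosine, by 2.67, DMRTA1 by 1.89, FOCAD by 1.67, MLLT3 by 1.37 and KLHL9 by 1.17. Their median was 1.52 against -0.04 for all genes, while ELAVL2 gave -0.08 and did not pass. MTAP stood at 183 ± 34.0 TPM (SD, n = 4) in A375 WT and 27.6 ± 0.852 TPM (SD, n = 4) in WM115 WT. DNA copy number was not measured. The other INK4 genes were well above CDKN2A in WM115: CDKN2C was read at 33.9 to 81.2 TPM in A375 and 30.8 to 77.5 TPM in WM115, and CDKN2D at 13.7 to 33.9 and 10.6 to 27.6 TPM.

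**Figure D2:**
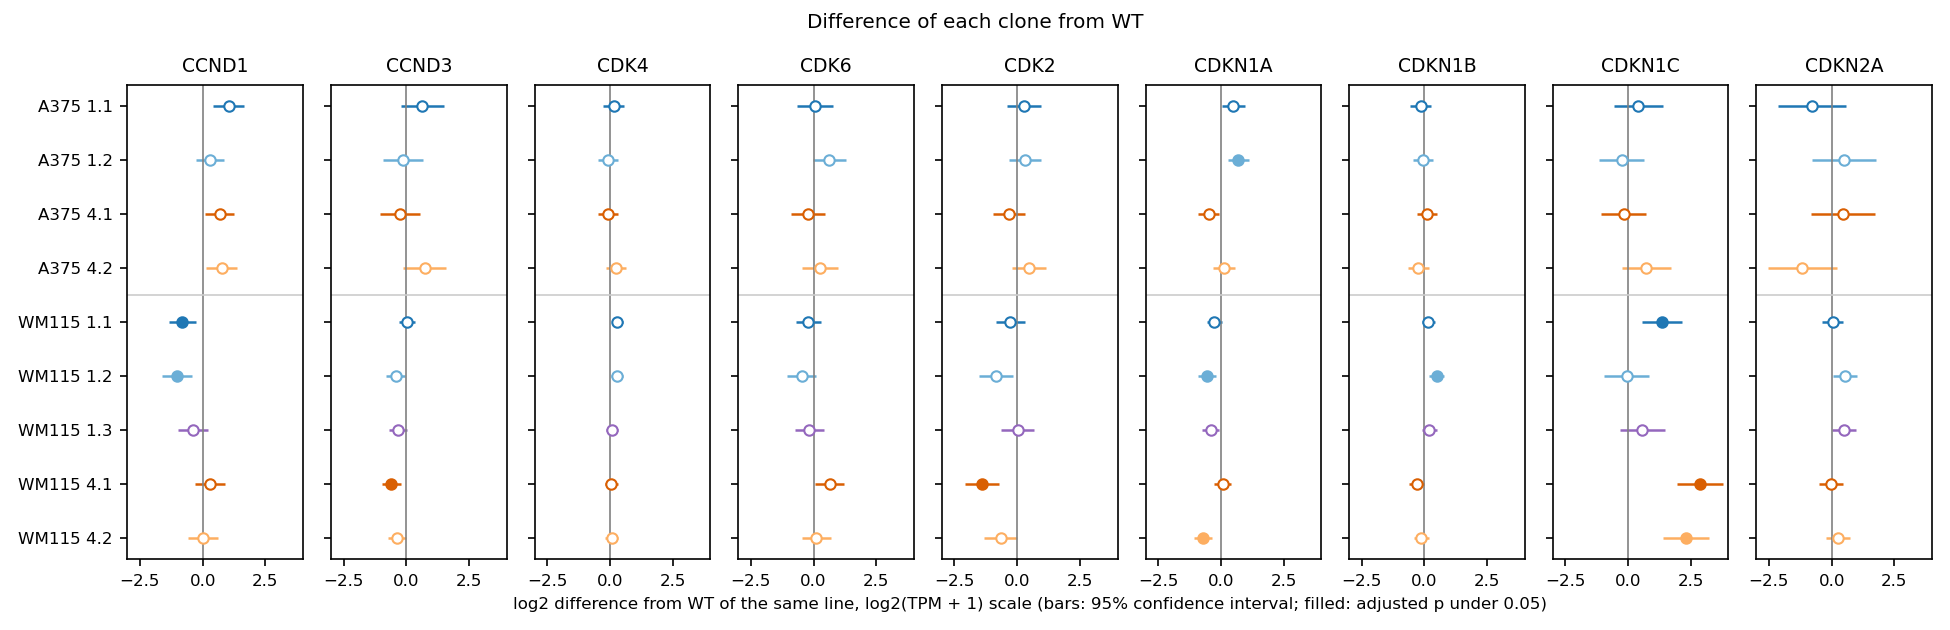
Log2 difference of each gene from WT of its line in each clone, with its 95% confidence interval; filled points passed the test (limma adjusted p below 0.05). The fits drawn have no replicate block, and in them CDKN1A in clone 1.2 alone passed in A375. With the block, not drawn, CCND1 in A375 clone 4.1 also passed (0.67, limma adjusted p = 0.0257). The largest differences were those of CDKN1C in WM115 clones 4.1 (2.88) and 4.2 (2.32).

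In the edited clones of A375 a single call was made among the G1 regulators, and a second, CCND1 in clone 4.1, came with the replicate number as a block. In clone 1.1 none of the 9 tested genes passed where 1.04% of all genes did, and the median of the 9 was 0.27 against 0.01 for all genes. In clone 1.2 CDKN1A alone passed, where 8.53% of all genes did (medians 0.29 and 0.07). In clone 4.1 none passed where 1.31% did (medians -0.18 and -0.02). With the replicate block 1 passed there, but the share of all genes passing with the block was not recorded. In clone 4.2 none passed where 0.557% did (medians 0.24 and 0.06). At an unadjusted p below 0.05 the counts were 2, 1, 2 and 1 in clones 1.1, 1.2, 4.1 and 4.2.

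CDKN1A was read at 179, 137, 161 and 105 TPM in A375 clone 1.2, where the WT libraries ended at 104 TPM, so the groups did not overlap but nearly met. It rose by 0.70 (95% interval 0.29 to 1.12, limma adjusted p = 0.0334). This call is not a firm one: it was kept in 5 of 18 alternative settings, with differences of 0.57 to 0.88, and lost for example with only clone 1.2 and WT in the fit (adjusted p = 0.0707). Leaving out any 1 of 6 of the 8 libraries also ended it. In clone 1.1 CDKN1A was read at 124, 128 and 120.3 TPM, above all WT libraries (difference 0.50, limma adjusted p = 0.424), and in clone 4.1 at 57.6, 85.2, 43.3 and 72.0 TPM, overlapping WT (difference -0.47, limma adjusted p = 0.364). None of the 24 tested p53 pathway genes passed in any A375 clone, where 0.557% (clone 4.2) to 8.53% (clone 1.2) of all genes did.

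CCND1 was read at 404, 602 and 525 TPM in A375 clone 1.1, above every WT library. In clone 4.1 it was read at 395, 382, 302 and 493 TPM and in clone 4.2 at 382, 407 and 443 TPM, both overlapping the highest WT library of 396 TPM. The differences from WT were 1.05 (SE 0.29, limma adjusted p = 0.112) in clone 1.1, 0.67 (adjusted p = 0.342) in clone 4.1, 0.75 (adjusted p = 0.553) in clone 4.2 and 0.29 (adjusted p = 0.595) in clone 1.2. None passed in this fit, which has no replicate block. The WT and clone 4.1 libraries with the same replicate number deviated together, and with the number as a block the clone 4.1 difference of 0.67 did pass (limma adjusted p = 0.0257). Without library 4 of WT the difference in clone 1.1 was 1.28 and passed (limma adjusted p = 0.0279).

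Of a list of MAP kinase output and feedback genes and MYC, 4 of 11 fell in A375 clone 1.2, where 3.09% of all genes fell. None of the list passed in the other A375 clones. SPRY4, a feedback inhibitor of the pathway, fell by 2.41, the immediate early gene EGR1 gave -2.0, SPRY2 fell by 0.99 and MYC fell by 0.86. CCND1 itself did not pass in that clone. Of 32 other genes of the G1/S machinery 1 fell in clone 1.2, the retinoblastoma gene RB1 (-0.65). No S phase gene (24 tested) and no G2/M gene (24 tested) passed in any A375 clone, where 0.557% to 8.53% of all genes did. The S phase medians ran from -0.23 in clone 4.1 to 0.68 in clone 4.2.

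CDK2, CDK4 and CCND3 tracked the S phase genes from library to library in A375. Over the 18 libraries the Pearson correlation of log2 values with the summed TPM of the 24 S phase genes was 0.94 for CDK2, 0.94 for CDK4 and 0.93 for CCND3, and -0.86 for CDKN2A. CDKN2A also ran against CDK4 (r = -0.94) and CCND3 (r = -0.95). These 18 libraries share clones and the TPM total, so the values are descriptions. In the 21 WM115 libraries the correlation with the S phase sum was 0.21 for CDK2, 0.38 for CDK4, 0.60 for CCND3 and 0.20 for CDKN2A.

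CDKN2A spanned 2.92 to 39.2 TPM over the A375 libraries. It was read at 8.81, 39.2, 15.8 and 4.06 TPM in clone 4.1, at 12.6, 6.32, 15.8 and 20.3 TPM in clone 1.2, at 8.46, 3.97 and 2.92 TPM in clone 1.1, and at 3.47, 3.30 and 3.26 TPM in clone 4.2. Clones 1.1, 1.2 and 4.1 overlapped WT, and the clone 4.2 libraries lay below all WT libraries (difference -1.17) without passing the test. The high libraries were library 2 of WT (34.8 TPM) and library 2 of clone 4.1 (39.2 TPM). The same libraries had the lowest S phase sums, 805.8 and 886 TPM, and the lowest G2/M sums, 717.1 and 644.7 TPM, of the 18 A375 libraries. Whether the cells of those libraries were cycling less was not tested.

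By the GENCODE models, CDKN2A RNA in A375 was assigned to transcripts that start with exon 1 alpha or inside or just before exon 2, and almost none to exon 1 beta. Exon 1 alpha transcripts made up 25.6% to 62.4% of CDKN2A TPM over the 18 A375 libraries, with a median of 48.0%. In clone 4.2 the shares were 33.1%, 25.6% and 32.3%, at the low end of that range. Exon 1 beta transcripts were listed at 0 TPM in 14 of 18 A375 libraries and reached 0.138 TPM at most. In WM115, where the whole gene reached 1.76 TPM, they were listed at 0 in 20 of 21 libraries. In A375 WT the exon 2 transcript CDKN2A-212 was read at 2.45, 16.7, 3.35 and 2.39 TPM. Of the exon 1 alpha transcripts CDKN2A-213 was read at 1.03, 9.29, 1.61 and 0.958 TPM and CDKN2A-201 at 1.43, 7.46, 1.22 and 0.873 TPM. All 3 were highest in library 2. The transcripts share most of their bases, so their split rests on few reads and on the estimation in the deposited table.

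**Figure D3:**
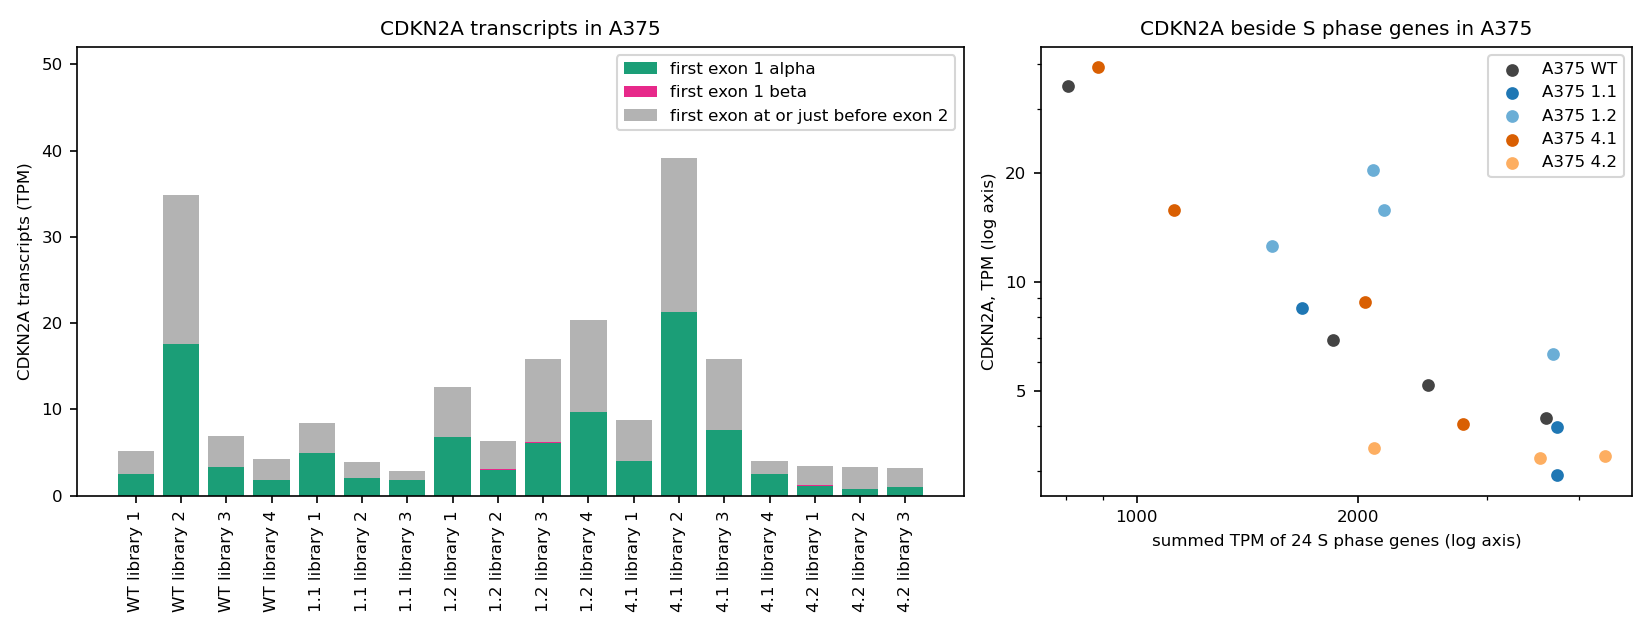
Left, TPM of CDKN2A transcripts in each A375 library, stacked by first exon; right, CDKN2A TPM against the summed TPM of 24 S phase genes in the A375 libraries. Library 2 of WT and library 2 of clone 4.1 combine the highest CDKN2A (34.8 and 39.2 TPM) with the lowest S phase sums (805.8 and 886 TPM).

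In WM115 calls were made among the G1 regulators in 4 of 5 clones, or in 3 of 5 without library 3 of clone 1.2, and the largest differences were those of CDKN1C. In clone 1.1, 2 of 9 passed where 22.0% of all genes did (median 0.03 against -0.12 for all genes). In clone 1.2, 3 of 9 passed where 22.6% did (median -0.43 against -0.02), and without library 3 none of 9 passed where 5.61% of all genes did. In clone 1.3 none passed where 1.06% did (0.02 against -0.03), with 2 at an unadjusted p below 0.05. In clone 4.1, 3 of 9 passed where 24.2% did (0.06 against -0.10), and in clone 4.2, 2 of 9 where 20.3% did (0.01 against -0.10). These shares are near the background of each clone, so the counts say nothing particular to the G1 regulators. All these comparisons use the same 4 WT libraries.

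CDKN1C, an imprinted gene at 11p15 whose product arrests cells in G1, was the largest change. It was read at 4.75, 3.85, 5.51 and 2.71 TPM in WM115 WT, at 46.2, 40.0 and 26.1 TPM in clone 4.1 and at 45.3, 17.7 and 17.96 TPM in clone 4.2. Both R4 clones lay above every WT library. It rose by 2.88 in clone 4.1 (SE 0.43, 95% interval 1.97 to 3.78, limma adjusted p = 0.000175) and by 2.32 in clone 4.2 (SE 0.43, 1.41 to 3.22, limma adjusted p = 0.00151). Both calls held in all 16 and 17 alternative settings, at 2.23 to 3.13 and 1.89 to 2.55. The 2 clones did not differ from each other beyond the test (0.56, limma adjusted p = 0.538). As a share of the summed CIP/KIP TPM, CDKN1C went from 1.23% in WT to 9.73% in clone 4.1 and 10.8% in clone 4.2.

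CDKN1C also rose in WM115 clone 1.1, where it was read at 17.2, 16.6, 13.6, 7.42 and 8.08 TPM, all above WT. The difference was 1.34 (SE 0.38, 95% interval 0.54 to 2.14, limma adjusted p = 0.0173). In clone 1.2, at 6.18, 6.14 and 1.31 TPM, and in clone 1.3, at 11.5, 6.61 and 3.57 TPM, it overlapped WT. The clones of the R1 deletion differed in CDKN1C (1.1 minus 1.2: 1.39, SE 0.41, limma adjusted p = 0.0138), but without library 3 of clone 1.2 the difference was 0.85 (adjusted p = 0.156). In A375 CDKN1C did not pass in any clone, at 7.53 to 51.0 TPM over the edited libraries.

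The CDKN1C values of WM115 moved with the share of mitochondrial RNA. Over the 21 libraries log2 CDKN1C and the mitochondrial percent gave r = -0.69, and in A375 r = -0.23 (n = 18). The WT libraries had 14.6%, 15.6%, 13.7% and 15.1% mitochondrial TPM, those of clone 1.1 had 6.78%, 4.86%, 5.32%, 13.2% and 14.4%, those of clone 4.1 had 6.34%, 5.24% and 10.8%, and those of clone 4.2 had 4.71%, 12.7% and 11.2%. In clone 1.1 the libraries of 13.2% and 14.4% were the ones with the lowest CDKN1C. Within libraries of the high set the difference of clone 4.2 was 1.89 and passed (limma adjusted p = 0.0343), and that of clone 1.1 was 0.78 and did not (adjusted p = 0.352). The fit of clone 4.2 rested on its libraries of 12.7% and 11.2%, still below every WT library. Clone 4.1 had only its library of 10.8% in the high set and was not fitted this way. With the set as a term in the fit, clone 1.1 gave 0.76 (adjusted p = 0.149).

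The genes around CDKN1C on chromosome 11 (11:2883213-2885773, GRCh38, minus strand) were tested in each clone and between the R4 clones. In clone 4.1, 6 of the 9 tested genes starting within 500 kb were higher and none lower, where 8.59% of all genes were higher, with a median of 0.72 against 0.29 for the 912 tested genes of chromosome 11. They were TSSC2 (1.5), SLC22A18AS (1.1), PHLDA2 (0.96), CARS1 (0.92), OSBPL5 (0.72) and TSSC4 (0.50). In clone 4.2 none was higher where 6.71% of all genes were, and 1 was lower, with a median of -0.04 against 0.02 for the chromosome. The lower gene was SLC22A18, an organic cation transporter whose start lies 13948 bp from that of CDKN1C, at -1.73 (limma adjusted p = 0.000364). In clone 1.1 SLC22A18 was also lower (-1.08, limma adjusted p = 0.00353), TSSC2 was higher (0.72, limma adjusted p = 0.0199), and the neighbour median was -0.01 against -0.27 for the chromosome. These shifts were also seen where CDKN1C did not pass. In clone 1.2, with library 3 included, SLC22A18 (-1.06, limma adjusted p = 0.011) and SLC22A18AS (-1.4, adjusted p = 0.014) were lower. TSSC2 was higher in clone 1.2 (1.93, limma adjusted p = 8.55e-05) and in clone 1.3 (1.73, adjusted p = 0.000421). In clone 4.1 SLC22A18 stood at -0.21 and did not pass (limma adjusted p = 0.601). Compared directly, 5 of the 9 were higher in clone 4.1 than in clone 4.2 and none lower, where 3.99% of all genes were higher: SLC22A18AS (2.04), TSSC2 (1.62), SLC22A18 (1.51), CARS1 (0.80) and TSSC4 (0.54). Reads of SLC22A18 and its antisense partner SLC22A18AS cannot be told apart without strand. The rise of CDKN1C exceeded that of every neighbour in clones 1.1, 4.1 and 4.2. Copy number, methylation and the parental allele were not measured.

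**Figure D4:**
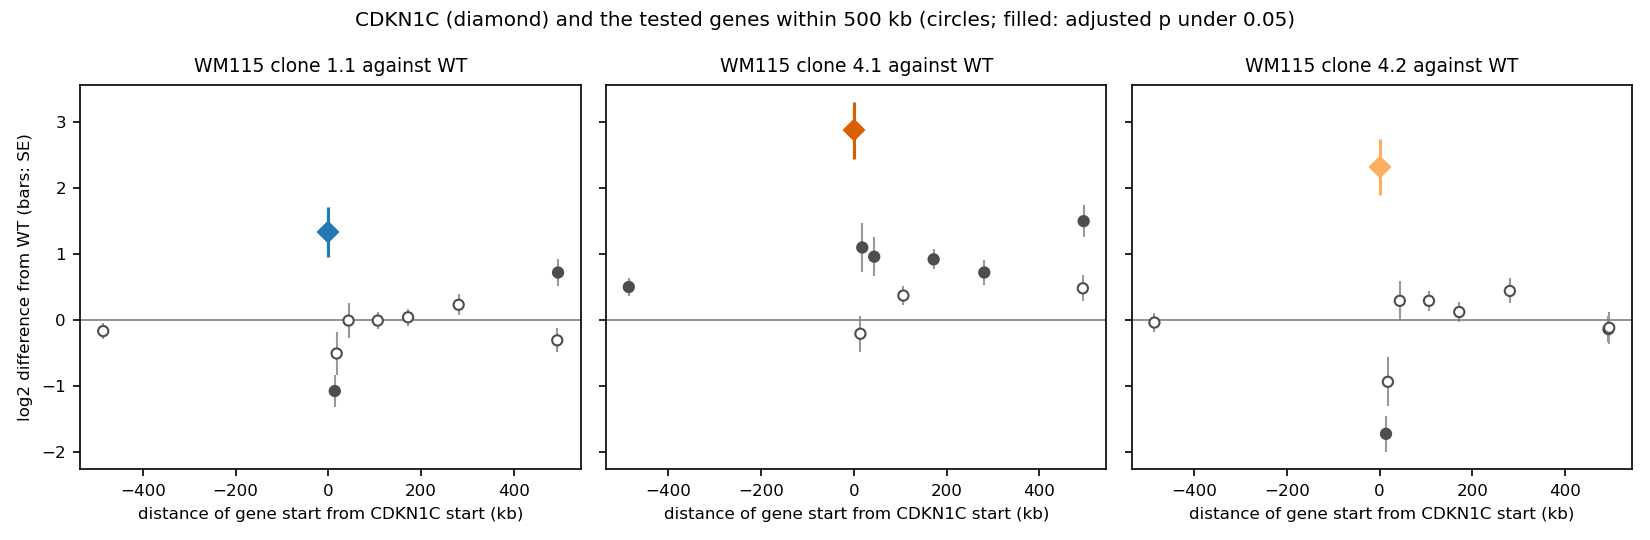
Log2 difference from WT of CDKN1C (diamond) and of tested genes within 500 kb (circles) by distance from the CDKN1C start in kb, for WM115 clones 1.1, 4.1 and 4.2; bars are SE and filled symbols passed the test. In clone 4.1 neighbours lie mostly above 0 (median 0.72), while in clone 4.2 they centre near 0 (median -0.04) with SLC22A18 at -1.73.

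CDK2 fell in WM115 clone 4.1. It was read at 58.2, 72.1 and 51.0 TPM there against 152, 187, 113 and 199 TPM in WT, with no overlap. The difference was -1.40 (SE 0.32, 95% interval -2.07 to -0.72, limma adjusted p = 0.0046) and passed in all 16 alternative settings, at -1.56 to -1.26, the mitochondrial set as a term among them. Over the 21 WM115 libraries CDK2 and the mitochondrial percent gave r = 0.57, and clone 4.1 had lower percents than WT. In clone 4.2 CDK2 was read at 88.6, 113 and 101 TPM, overlapping WT only at its lowest library (difference -0.66, limma adjusted p = 0.155). Clone 4.1 against clone 4.2 gave -0.74 (limma adjusted p = 0.221), so the clones were not shown to differ. In clone 1.2 CDK2 was read at 124, 112 and 49.0 TPM, the lowest from library 3 (difference -0.84, limma adjusted p = 0.064, and -0.43 without that library, adjusted p = 0.425).

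CDK2 lies inside the span of PMEL, a melanosome gene on the opposite strand, and the labels do not say whether strand was used in counting. The spans overlap over 6016 bases, and 89 exon bases, 2.3% of those of CDK2, are shared. AC025162.1, also on the opposite strand, shares 565 exon bases of CDK2 (14.5%) and reached 8.2 TPM in WM115. In WM115 the log2 values of the genes gave r = 0.80 (n = 21), and in A375, where PMEL reached only 2.54 TPM, r = -0.41 (n = 18). PMEL was read at 15.9, 12.3, 8.15 and 41.1 TPM in WM115 WT, at 1.2, 1.27 and 1.02 TPM in clone 4.1 and at 2.71, 4.46 and 2.24 TPM in clone 4.2. PMEL fell in clone 4.1 (difference -2.99, limma adjusted p = 0.0112) and gave -2.09 in clone 4.2 (adjusted p = 0.0678). The highest CDK2 of all libraries, 301 TPM in library 3 of WM115 clone 1.3, came with the highest PMEL, 142 TPM. The part of shared reads in the CDK2 values was not tested.

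**Figure D5:**
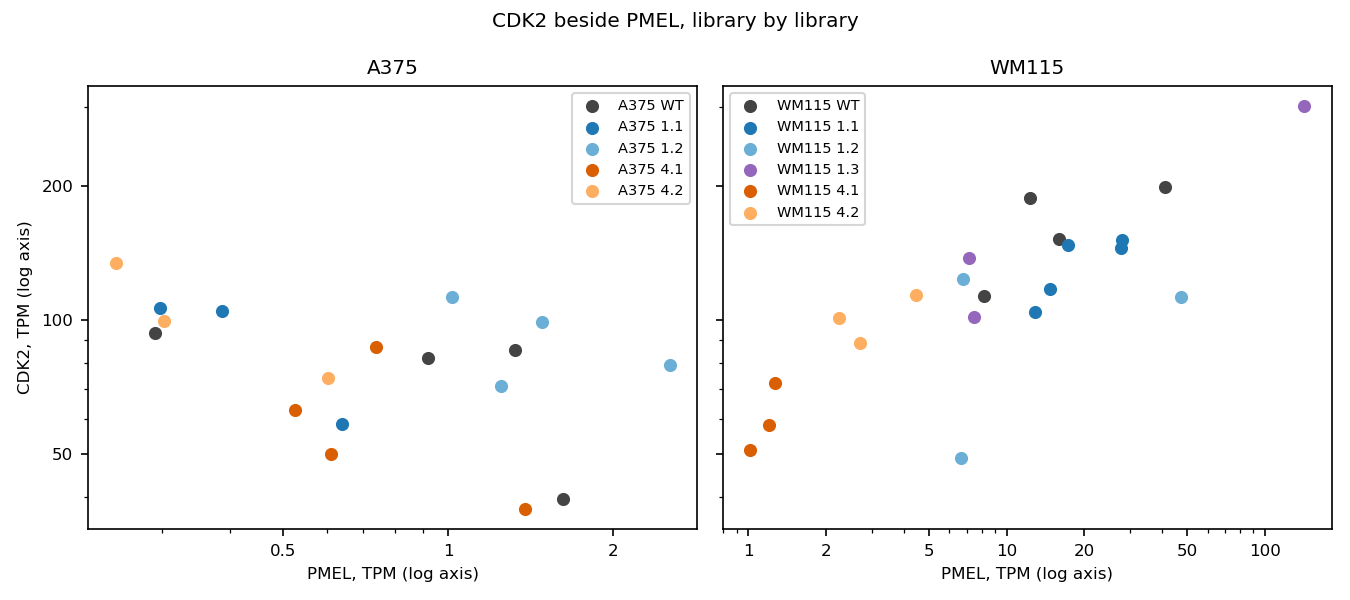
CDK2 TPM against PMEL TPM (log axes) in each library, by line. In WM115 libraries with more PMEL had more CDK2 (r = 0.80, n = 21), with clone 4.1 at the low end of both; in A375 PMEL did not exceed 2.54 TPM.

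CCND1 fell in both R1 clones of WM115. It was read at 533, 558, 659.5, 559 and 499.9 TPM in clone 1.1, below the WT range of 821 to 1274 TPM, and fell by 0.81 (SE 0.25, 95% interval -1.34 to -0.28, limma adjusted p = 0.0269). In clone 1.2 it was read at 683, 688 and 242 TPM and fell by 1.02 (SE 0.29, limma adjusted p = 0.0179), but without library 3, the lowest, the difference was -0.52 and did not pass (adjusted p = 0.161). The call in clone 1.1 held in 12 of 19 settings and was lost when WT library 2, 3 or 4 was left out (adjusted p = 0.0554, 0.0756 and 0.0508). CCND1 was read at 1343, 1376 and 940.1 TPM in clone 4.1 and at 1059.8, 704 and 1297 TPM in clone 4.2, overlapping WT in both. The 4 tested neighbours of CCND1 had a median of 1.51 in clone 4.1, where CCND1 stood at 0.29. ANO1 (2.05) and AP005233.2 (1.01) were higher there, where 8.59% of all genes were. ANO1 was also higher in clone 4.2 (2.02, limma adjusted p = 0.0243), where no other neighbour passed. The median of the 4 neighbours was -0.56 in clone 1.1 with none passing. Chromosome 11 as a whole had medians of -0.27 in clone 1.1 and 0.29 in clone 4.1.

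Of the same list of MAP kinase output and feedback genes and MYC, only MYC passed in WM115 clone 1.1 (1 of 11). It rose by 1.22, where 22.0% of all genes passed. None of the list passed in clone 1.2, where 22.6% of all genes did. In clone 4.1, where 24.2% of all genes passed, MYC fell by 1.83 and ETV5 fell by 0.58, while IER3 (1.3) and PHLDA1 (0.53) rose. In clone 4.2, where 20.3% of all genes passed, MYC fell by 1.74 and SPRY2 by 0.50, while EGR1 (1.68), IER3 (0.96) and SPRY4 (0.90) rose. CCND1 did not pass in either R4 clone.

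CCND3, the second D cyclin, fell in clone 4.1, where it was read at 36.5, 57.3 and 34.1 TPM against 55.6, 63.6, 81.0 and 55.6 TPM in WT. The groups overlapped in 1 library. The difference was -0.60 (SE 0.18, limma adjusted p = 0.0205), and the call held in 9 of 16 settings. In clone 4.2, at 48.2, 49.4 and 48.0 TPM, it lay below every WT library without passing (difference -0.37, adjusted p = 0.142). CCND3 and CDKN1A are both on chromosome 6, whose genes had medians of -0.31 in clone 4.1 and -0.25 in clone 4.2. The genes within 500 kb of CCND3 had medians of -0.16 and -0.30.

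CDK4 and CDK6 did not pass in any WM115 clone, though both passed in some alternative settings. CDK4 was read at 172, 223, 219, 187 and 169 TPM in clone 1.1 against 149, 159, 177 and 145 TPM in WT, an overlap at the edge (difference 0.29, limma adjusted p = 0.0553), and passed under other scalings, such as median-of-ratios scaling (0.44, limma adjusted p = 0.00583). CDK4 shares 1369 exon bases (43.2% of its own) with TSPAN31 on the other strand, which reached 93.4 TPM in WM115. CDK6 was read at 29.7, 30.4 and 19.9 TPM in clone 4.1 against 15.8, 14.6, 23.5 and 13.7 TPM in WT, overlapping in 1 library (difference 0.64, limma adjusted p = 0.0989). CDK6 in clone 4.1 passed with median-of-ratios scaling (0.77, limma adjusted p = 0.0444), with quantile normalization (0.74, adjusted p = 0.0471) and without WT library 3 (0.80, adjusted p = 0.046). Over the 21 WM115 libraries the correlation with the mitochondrial percent was -0.59 for CDK4 and -0.57 for CDK6. In clone 1.1 CDK6 gave -0.21 (limma adjusted p = 0.571). With the mitochondrial set as a term it gave -0.64 and passed as lower (limma adjusted p = 0.0331). The part of the mitochondrial share was not tested beyond fits with the set as a term or within a set.

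CDKN1A fell in WM115 clone 4.2 and not in clone 4.1. It was read at 211, 174 and 189 TPM in clone 4.2, below the WT range of 297 to 329 TPM, and fell by 0.71 (SE 0.16, limma adjusted p = 0.00597). The call held in 14 of 17 settings. It was lost for example with the replicate block (limma adjusted p = 0.0568) and within the high mitochondrial set (-0.78, limma adjusted p = 0.0557). In clone 4.1 CDKN1A was read at 326, 318 and 341 TPM, overlapping WT. The clones themselves differed by 0.78 (SE 0.18, limma adjusted p = 0.0103), a call lost without library 2 of clone 4.2 (0.71, limma adjusted p = 0.0566). It also fell in clone 1.2, at 252, 242 and 162 TPM (difference -0.54, SE 0.16, limma adjusted p = 0.0253), but not without library 3 (-0.34, adjusted p = 0.215).

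Of the p53 pathway list 6 of 24 fell and none rose in clone 4.2, where 13.6% of all genes fell and 6.71% rose (median -0.23 against -0.10 for all genes). The genes that fell furthest were GDF15 (-3.53), PHLDA3 (-1.04), BBC3 (-0.86), ZMAT3 (-0.81) and CCNG1, cyclin G1 (-0.71). In clone 4.1 GDF15 fell by 2.18 while MDM2 (0.72) and RRM2B (0.69) rose. Clone 4.1 against 4.2 had 4 of 24 higher and none lower, where 3.99% of all genes were higher, TIGAR (0.84), MDM2 (0.84), RRM2B (0.58) and FDXR (0.57). In clone 1.2, 8 fell and 2 rose, where 10.8% of all genes fell and 11.8% rose, with GDF15 (-1.82), MDM2 (-1.03), SESN1 (-0.95) and BBC3 (-0.94) lower and the death receptor FAS (0.80) higher. Without library 3 of clone 1.2, 3 of 24 (12.5%) fell and none rose, where 5.61% of all genes passed. The genes that fell were SESN1 (-0.76), MDM2 (-0.72) and PLK3 (-0.72), and GDF15 gave -1.08 (limma adjusted p = 0.24). The genes within 500 kb of CDKN1A had a median of -0.30 in clone 4.2, with 3 of 9 lower, where 13.6% of all genes fell. In clone 4.1 CDKN1A gave 0.07 and did not pass. Its neighbours MTCH1 (-0.65), PIM1 (-0.6), C6orf89 (-0.5) and STK38 (-0.41) were lower there, where 15.6% of all genes fell.

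CDKN1B, which p27 is made from, rose in WM115 clone 1.2, where it was read at 29.5, 31.3 and 38.9 TPM against 25.7, 24.1, 19.4 and 23.6 TPM in WT, without overlap. The difference was 0.50 (SE 0.14, limma adjusted p = 0.02), and 0.38 without library 3 (adjusted p = 0.148). In clone 4.1 CDKN1B gave -0.30 (limma adjusted p = 0.133), and passed with the mitochondrial set as a term (-0.46, adjusted p = 0.0382). CDKN2A stayed at 0.142 to 1.76 TPM in all WM115 libraries and did not pass in any clone.

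Other genes of the G1/S machinery passed no more often than all genes in clones 1.1, 1.2 and 4.1 of WM115, whose shares of all genes called are given above. In clone 4.2 they passed more often than all genes, and no set test was run. In clone 1.1, 2 of 32 rose and 3 fell, with cyclin E2 (CCNE2, 1.19) and SKP1 (0.46) higher and CDK3 (-1.05), RB1 (-0.46) and RBL2 (-0.34) lower. In clone 4.2, 5 of 32 rose and 5 fell, where 6.71% of all genes rose and 13.6% fell. CCNE2 (1.41) and CKS1B (0.78) were among the higher genes there. E2F4 (-0.80), RB1 (-0.79) and RBL2 (-0.77), a relative of RB1, were among the lower. In clone 4.1, 2 rose and 4 fell, with the phosphatase CDC25A (-0.75), RBL2 (-0.75), E2F3 (-0.63) and E2F4 (-0.59) lower and MNAT1 (0.47) higher. In clone 1.2, 4 rose and 1 fell, with E2F5 (1.2) and CUL1 (0.62) higher and RB1 (-0.75) lower. Without library 3 of that clone none rose and 1 fell, RB1 (-0.75), where 5.61% of all genes passed. None passed in clone 1.3.

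Few genes of the later phases passed. Of 24 S phase genes MCM4 (0.65) rose in clone 1.1, where 22.0% of all genes passed. MCM2 (-1.06) and RFC4 (-0.72) fell in clone 4.1, where 24.2% did. Of 24 G2/M genes BIRC5 (0.99) and CKS2 (0.96) rose in clone 1.1, and none passed in the other WM115 clones. Of all genes 22.6% passed in clone 1.2, 1.06% in clone 1.3 and 20.3% in clone 4.2.

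Clones with the same labelled deletion were compared directly. In A375, clone 1.1 against 1.2 gave no call among the 9 where 13.2% of all genes passed, and clone 4.1 against 4.2 gave none where 3.95% passed, with 1 and 4 genes at an unadjusted p below 0.05. In WM115, clone 1.1 against 1.2 gave 2 of 9 where 35.5% passed, CDKN1C (above) and CCND3 (0.46, SE 0.17, limma adjusted p = 0.0408). The CCND3 call held in 7 of 16 settings and without library 3 gave 0.38 (adjusted p = 0.185). Clone 4.1 against 4.2 gave 1 of 9, CDKN1A, where 6.75% passed.

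The deletions were compared over the 8 clones with undisputed labels, with each clone as 1 value and the line as a covariate. None of the 9 genes passed and 0% of all 15287 genes did, with 658 genes at an unadjusted p below 0.05. CDKN1C was lower in R1 than in R4 clones by 1.08 (SE 0.46, unadjusted p = 0.0446 and adjusted p = 0.996 by limma), and was the only G1 regulator below 0.05 unadjusted. The interaction of deletion and line passed for none of the 9 and for 0% of all genes, with 390 genes at an unadjusted p below 0.05, among them CDKN1C (-1.75), CCND1 (-1.02) and CDK6 (-1.05), each with an adjusted p of 1 by limma.

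Across all 11 groups most neighbours in the order of mean levels overlapped. The order separated adjacent groups, with all libraries of one above all of the next, only for CCND1 (WM115 clone 1.3 above clone 1.1), CCND3 (WM115 WT above clone 1.3), CDKN1A (WM115 WT above clone 1.1 and A375 clone 1.1 above clone 4.2) and CDKN2A (A375 clone 4.2 above WM115 clone 1.2). CCND1 was highest in WM115 clone 4.1 and lowest in A375 WT. CDKN1A and CDKN1C were both highest in WM115 clone 4.1, and lowest in A375 clone 4.1 and WM115 WT respectively.

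The genes whose levels ran most like each regulator were taken over the 39 libraries after removing each line's mean, among 15287 genes, as a description. CCND3 ran with ARMC6 (r = 0.94), WDR5 (0.93) and HNRNPAB (0.93), and CDK2 with ACAT2 (0.91), SLC25A5 (0.89) and FDPS (0.88). CDKN1A ran with the p53 targets FDXR (0.78) and EDA2R (0.75) and with AL031587.5 (0.72). CDKN2A ran with TXNIP (0.89), at 0.96 within A375 and 0.27 within WM115. CDKN1C ran with CAPS (0.82), ZCCHC17 (0.82) and HM13 (0.81), at 0.89 to 0.90 within WM115 and 0.47 to 0.52 within A375. CCND1 ran with ACOT7 (0.86), CDK4 with UNG (0.89), CDK6 with NAT10 (0.90) and CDKN1B with ZNF189 (0.74).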

How the data were processed

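Total RNA was extracted with a column kit, selected for poly-A and primed with random hexamers, per the labels' protocols. The authors deposited gene and transcript TPM, and their processing notes name DRAGEN and GRCh38. No version, annotation or strand setting is given in the sources used here. No counts were used, so depth is unknown. Each TPM column summed to 999999.9 to 1000000.1. The 6 value columns per table that match no sample were not used. Of the identifiers, 58453 were placed with GENCODE 29.

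Groups follow the genotype labels and titles. log2(TPM + 1) values were fitted with limma 3.58.1 (R 4.3.3), 1 coefficient per group and line, with a mean-variance trend, over 16692 genes in A375 and 16997 in WM115 at 1 TPM or more in at least 3 libraries. The WT lines were fitted on their 8 libraries. P-values are two-sided, Benjamini-Hochberg adjusted over all genes tested. On simulated data, 67% (A375 clone 1.1) and 79% (WM115 clone 1.1) of genes changed by 1 log2 unit were recovered. The changed genes were drawn from those of higher WT level, with noise independent between genes and libraries. The rates therefore do not cover low genes, such as CDKN1C and CDKN2A in WM115 WT.

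The members, lists and tests were chosen with earlier results of these data known. Named beside the members are SOX10, called list genes (at most 5 per list and comparison, largest first), tested genes within 500 kb, and the 3 most alike genes. Single cell type markers and CCND2, CDKN2C and CDKN2D were named with them for their level.

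Same-numbered libraries correlated in every pair only for A375 clone 4.1 and WT (r = 0.326, 0.776, 0.342 and 0.705), and only there is the number taken as a pairing. Alternatives were the pseudocount, filters, scalings, the fitted groups, a replicate block, a mitochondrial term and leaving out libraries. Fits within the low or high mitochondrial set, and list counts without library 3 of WM115 clone 1.2, were added after seeing the data. The sequences of the CDKN2A transcripts are not reported here.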

Additional observations from a re-analysis of the deposited data

Results flagged for a closer look

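In 45 sets of libraries (a gene in a group of 4 or more), 3 had a library far from the others, where chance gives about 1 in 20. CDKN2A in A375 WT was 34.8 TPM in library 2 against 4.22 to 6.93 TPM in the other libraries. CDKN1C in A375 WT was 13 TPM in the same library against 18.8 to 19.98 TPM. CDK4 in A375 clone 1.2 was 293 TPM in library 2 against 212.5 to 225.9 TPM in the others.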

How the results depend on the processing

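Of 144 single differences, 2349 alternative values were computed: 2256 stayed on the same side of the threshold, 69 fell below it, 24 rose above it and 0 changed direction. The 16 values without a test did not move. Counts of members called moved with the setting. In settings other than leaving out a library, the 3 of WM115 clone 4.1 ran from 2 to 4. The 7 between the WT lines ran from 5 to 7. Leaving out 1 library gave 2 to 3 and 6 to 7 in these comparisons. The highest counts in the other settings were 3 in WM115 clone 1.1, 4 in clone 1.2 and 3 in clone 1.1 against 1.2. Other falls were as follows. In A375 clone 1.2 the count of 1 became 0 with median-of-ratios scaling, with quantile normalization, without a filter, with a minimum log2 difference of 1, only the 2 groups fitted, the replicate block and within the low mitochondrial set. In WM115 clone 1.1 the count of 2 became 1 with no filter and with the minimum difference, and 0 within the high set. In WM115 clone 1.2 the count of 3 became 1 with the minimum difference and within the high set, and 0 with 2 groups fitted and with the block. In WM115 clone 4.2 the count of 2 became 1 with the minimum difference, the block and the high set. In WM115 clone 1.1 against 1.2 it went from 2 to 1 with no filter, the minimum difference, 2 groups and the mitochondrial term, and in 4.1 against 4.2 from 1 to 0 with the minimum difference. Leaving out 1 library gave counts of 0 to 1 in A375 clones 1.1 and 1.2, 0 to 3 in WM115 clone 1.1, 0 to 5 in clone 1.2, 0 to 1 in A375 clone 1.1 against 1.2, 0 to 3 in WM115 clone 1.1 against 1.2 and 0 to 1 in 4.1 against 4.2. The causes were not tested, except that fewer libraries entered the last fits.

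The replicate block gave A375 clone 4.1, the only paired comparison, 1 call in place of 0 (CCND1, 0.67, limma adjusted p = 0.0257). The share of all genes called with the block was not recorded. In the other comparisons libraries share only a number (r from -0.619 to 0.331), and with the block WM115 clone 1.1 also called CDK4 (0.34, limma adjusted p = 0.0206). Precision is limited by 3 to 5 libraries per group, unknown depth and 1 clone per group.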
